A study of Homo sapiens with 28 samples.

Results

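Messenger RNA of HepG2 cells exposed to TCDD was compared directly with that of HepG2 cells exposed to tributyltin chloride (TBTCl), gene by gene, with no vehicle in the contrast. The comparison holds 8 of the 28 libraries of the series, 4 of TCDD and 4 of TBTCl, chosen by their treatment labels, and covers 18849 tested genes. HepG2 is an established human liver cancer line. All cells had been deprived of serum for 24 h and were then exposed for 24 h, to TCDD at 100 nM or to TBTCl at 0.1 µM, which is the same molar concentration. DMSO, kept at or below 0.1% of the medium, was the control for both compounds, and its 4 libraries show where the vehicle lies. The labels describe 4 independent experiments and cells of at most 17 passages. They do not say whether equal replicate numbers come from the same experiment, nor whether each library came from a separate culture. The p-values therefore measure the spread between libraries, which was estimated within the groups of all 28 libraries of the series. The series text records that the titles of the TCDD libraries were exchanged with those of another compound after deposit, and CYP1A1, described below, was high in the libraries that now carry the TCDD title.

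TCDD is a chlorinated dioxin that binds the aryl hydrocarbon receptor (AHR), a transcription factor held in the cytosol by chaperones. Bound AHR enters the nucleus, pairs with ARNT and acts at DNA elements with the core GCGTG, where it switches on genes of drug metabolism such as CYP1A1. Tributyltin is an organotin biocide known to bind the retinoid X receptor (RXR) and PPAR gamma. RXR is the common partner of nuclear receptors such as LXR, FXR and PPAR, which control cholesterol export, lipid synthesis and bile acid handling in liver.

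Total counts ran from 33191751 to 65187416 in the TCDD libraries, from 32835989 to 40591738 in the TBTCl libraries and from 31404432 to 66042414 in the DMSO libraries. Levels below are CPM, read counts relative to the TMM-scaled library total (counts-per-million), in the order of replicates 1 to 4 or as mean ± SD (n = 4). A gene with 3 reads in a library stands at 0.0434 to 0.104 CPM at these depths, a floor that covers counting error only. The label calls the cells hepatocytes, and the 10 hepatocyte markers summed to 32900 to 45600 CPM in TCDD, against 41600 to 63200 CPM in TBTCl. A list of 14 leukocyte, endothelial and stromal markers summed to 1630 to 3180 CPM in TCDD and 1660 to 3420 CPM in TBTCl, nearly all of it LYZ. Of these 14, PTPRC, KDR and DCN stayed under 0.1 CPM in all 8 libraries and 9 were tested. CDH5 and LUM were called higher in TCDD and CD14 lower, with log2 fold changes from -2.40 (CD14) to 4.49 (LUM), and the CDH5 call was lost without TBTCl replicate 4. The part of such markers in the results was not tested. TBTCl replicate 4 stood apart from the other libraries. Its first principal component score was 89.8, against 18.8 to 37.8 in the other TBTCl libraries, with the TCDD libraries between -52.3 and -37.2. Its reads ran high for short transcripts and low for long ones. In the shortest quartile of transcripts (at most 2344 bases) its median log2 deviation from the other 3 TBTCl libraries was 0.55, and in the longest quartile (at least 5391 bases) it was -0.49. The corresponding medians of the TCDD libraries lay between -0.144 and 0.125 over all quartiles. List counts that change without this library are given with and without it.

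**Figure D1:**
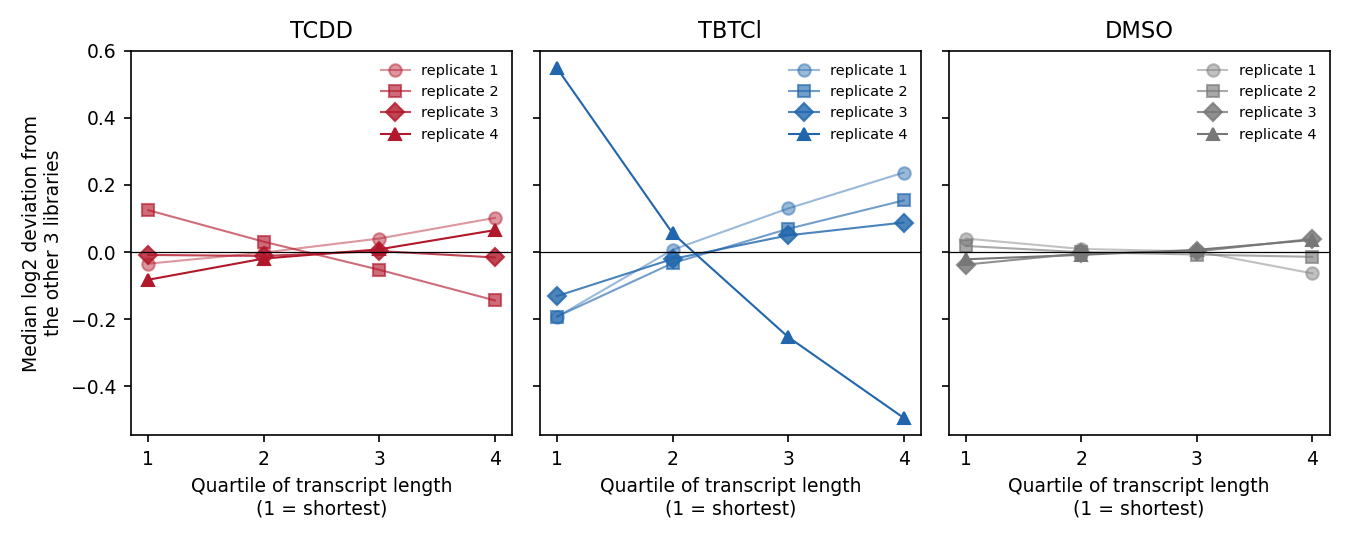
Median log2 deviation of each library from the other 3 of its group (y axis) for genes in 4 quartiles of transcript length (x axis, 1 = shortest, 10551 genes at 5 CPM or more). The line of TBTCl replicate 4 falls from 0.55 to -0.49, while the other 11 lines stay between -0.19 and 0.24.

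Promoters of 4 genes show the receptor motifs discussed with these compounds, 3 of genes far higher in TCDD (CYP1A1, AHRR and FMOD) and 1 of a gene far lower in TCDD than in TBTCl (SLC51B). Each is the 250 bases before the RefSeq start on GRCh38.p14, on the gene's own strand. Capitals mark GCGTG, the AHR element core, and AGGTCA, the half-site bound by RXR and its partners, on either strand.
CYP1A1 (chr15:74725529-74725778, minus strand): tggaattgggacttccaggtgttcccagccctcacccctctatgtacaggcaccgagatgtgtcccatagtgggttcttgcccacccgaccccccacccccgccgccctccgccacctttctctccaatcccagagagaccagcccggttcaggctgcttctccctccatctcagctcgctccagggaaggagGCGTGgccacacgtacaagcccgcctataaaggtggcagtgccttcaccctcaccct
AHRR (chr5:321464-321713, plus strand): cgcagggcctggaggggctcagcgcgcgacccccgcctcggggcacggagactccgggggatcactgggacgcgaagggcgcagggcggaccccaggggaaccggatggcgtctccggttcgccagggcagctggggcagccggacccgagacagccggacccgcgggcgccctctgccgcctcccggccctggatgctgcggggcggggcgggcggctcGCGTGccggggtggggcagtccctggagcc
FMOD (chr1:203351123-203351372, minus strand): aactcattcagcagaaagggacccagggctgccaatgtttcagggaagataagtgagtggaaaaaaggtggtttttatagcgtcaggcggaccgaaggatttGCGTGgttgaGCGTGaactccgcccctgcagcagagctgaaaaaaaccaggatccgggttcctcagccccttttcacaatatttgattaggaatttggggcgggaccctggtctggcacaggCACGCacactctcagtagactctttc
SLC51B (chr15:65045137-65045386, plus strand): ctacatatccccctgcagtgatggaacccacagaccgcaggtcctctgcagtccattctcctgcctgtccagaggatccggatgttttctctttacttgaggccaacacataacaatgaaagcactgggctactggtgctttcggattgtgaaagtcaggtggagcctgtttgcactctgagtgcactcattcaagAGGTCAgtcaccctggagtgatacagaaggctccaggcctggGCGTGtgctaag
The CYP1A1 stretch holds 1 GCGTG, the AHRR stretch 1 and the FMOD stretch 3, of which 1 is on the other strand. SLC51B holds 1 GCGTG and 1 AGGTCA, and the 2 do not overlap. Such matches are common. RefSeq promoters were matched by symbol to 11962 tested genes, and 43.8% of them hold GCGTG, against 38.6% of the 879 matched genes higher in TCDD and 47.8% of the 786 lower in TCDD. AGGTCA stands in 9.13% of tested genes, 9.44% of those higher and 11.1% of those lower. The shares are descriptions of these windows only.

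More genes were higher than lower in TCDD. Of 18849 tested genes, 1368 were higher in TCDD than in TBTCl (7.26%) and 1052 were lower (5.58%), 2420 in all (12.8%, edgeR quasi-likelihood test, Benjamini-Hochberg adjusted p under 0.05). Differences upward were larger: 765 of the genes higher in TCDD (4.06% of those tested) differed by at least 2-fold, against 302 of the lower ones (1.60%). The values of the 4 TCDD and 4 TBTCl libraries did not overlap in 13.2% of tested genes, 8.23% with TCDD higher and 5.01% with TCDD lower. Scaling by library size alone shifted the balance, to 1547 higher and 720 lower. Genes higher in TCDD made up 68.2% of the calls under that scaling, against 56.5% under TMM. Without TBTCl replicate 4, 1088 of the 1368 higher genes and 662 of the 1052 lower genes were still called in the same direction. Of all 18849 genes, 1265 were then called higher and 926 lower. The shares of 7.26% and 5.58% are the background for every list count below, and the counts of 1265 and 926 for those without that library. A fit of these 8 libraries alone called 667 higher and 252 lower. The same step for TCDD against DMSO called 1122 higher and 504 lower, against 1215 and 528 in the fit of all 28 libraries. Why the 2 comparisons respond unlike was not tested.

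**Figure D2:**
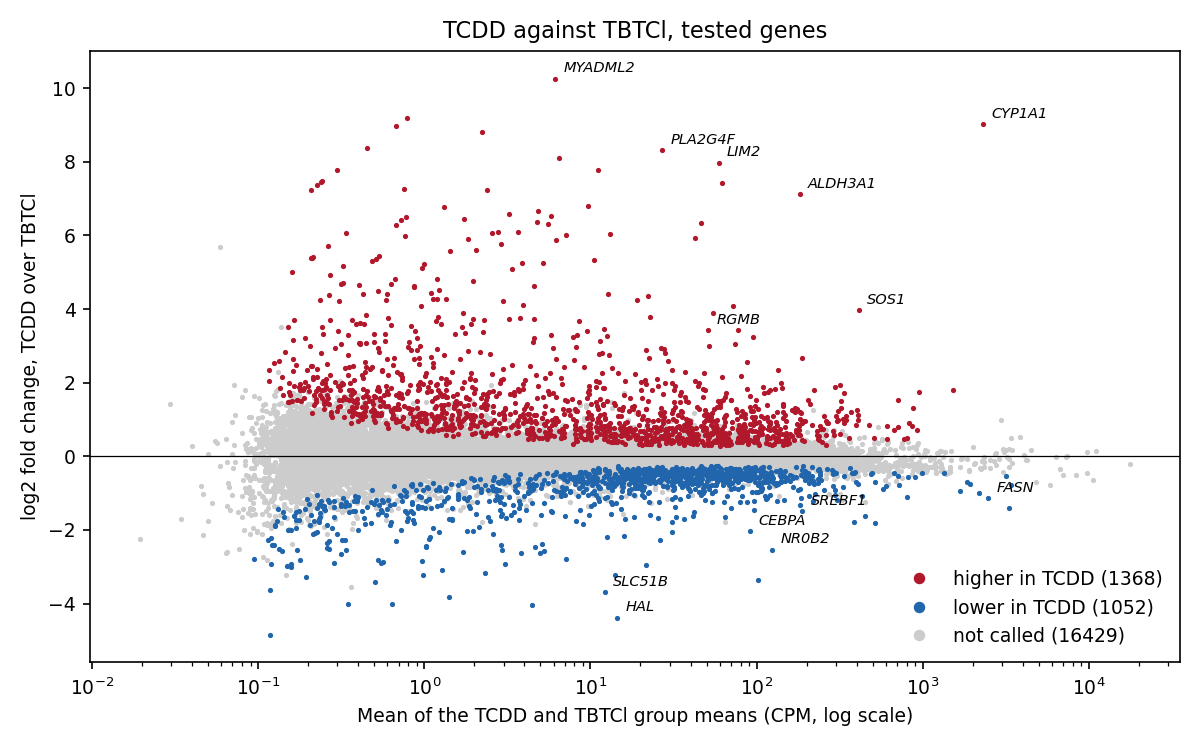
The log2 fold change of TCDD over TBTCl (y axis) against the mean of both group means in CPM (x axis, log scale), 1 point per tested gene. CYP1A1 lies at 9.03 among abundant genes, while HAL lies at -4.38 among the genes lower in TCDD.

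Each compound was also set against the vehicle. TCDD against DMSO called 1215 genes higher (6.45%) and 528 lower (2.80%), 9.25% in all, and 1228 of these 1743 were called in the same direction against TBTCl and 0 in the opposite direction. TBTCl against DMSO called 20 genes higher (0.106%) and 7 lower (0.0371%), 0.143% in all. That small count depends on the analysis. In this pair equal replicate numbers went together, and the fit with a replicate block called 102 higher and 77 lower. DESeq2 called 145 and 107. Leaving out TBTCl replicate 2 gave 91 and 69, leaving out TBTCl replicate 4 gave 9 and 0, and leaving out a DMSO library gave 5 to 7 and 0. At an unadjusted p under 0.05 there were 2937 genes, against 3962 for TCDD and DMSO. The lower calls of TCDD against DMSO fell to 298 without TCDD replicate 2. All 3 comparisons use shared libraries, so their counts are not independent of each other.

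Of the 1368 genes higher in TCDD, 903 were called higher than DMSO for TCDD and not called for TBTCl, and 457 were called in neither comparison with DMSO. Of the 1052 genes lower in TCDD, 316 were called lower than DMSO for TCDD alone and 721 were called in neither. In both directions together, 1178 genes separated the compounds without passing the test against the vehicle for either. Without TBTCl replicate 4, 596 of these 1178 were still called, against 1154 of the other 1242. NAT8, an acetyltransferase gene of liver and kidney, is among them. It had 2.75, 4.03, 3.25 and 2.17 CPM in TCDD, against 7.68, 8.65, 9.28 and 9.19 CPM in TBTCl (log2 fold change -1.51 ± 0.22 SE, adjusted p = 2.46e-05), and DMSO averaged 4.29 ± 1 CPM. ENG, a TGF beta co-receptor, had 1.75, 2.51, 2.23 and 2.12 CPM in TCDD, against 5.57, 5.85, 5.06 and 4.84 CPM in TBTCl, with DMSO at 2.87 ± 0.593 CPM (log2 fold change -1.31 ± 0.21 SE, adjusted p = 5.74e-05). DSP, which encodes the desmosome protein desmoplakin, ran the other way, with 1210, 1155, 1287 and 1285 CPM in TCDD, against 573, 515, 632 and 286 CPM in TBTCl and DMSO at 845 ± 149.7 CPM (log2 fold change 1.30 ± 0.20 SE, adjusted p = 3.26e-05). In all 3 genes the groups did not overlap. They were picked as examples after their values were seen.

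Most tested AHR targets were higher in TCDD. Of 14 tested members of the AHR target list 10 were higher in TCDD than in TBTCl (9 without TBTCl replicate 4) and 0 lower, with a median log2 fold change of 1.77 against -0.02 over all tested genes. The list has 18 entries. CYP1B1, AHRR and SERPINB2 averaged at most 0.122 CPM in every group other than TCDD, so their TCDD libraries carried them past the filter on low counts. Being tested thus favoured a call of these 3 as higher, and they add no separate support to the count or the median. CYP1A1 (ENSG00000140465, chr15:74719542-74725610), the cytochrome P450 that is the classic readout of the receptor, had 2841, 6410, 4959 and 4243 CPM in TCDD, against 10.5, 18.1, 3.58 and 2.78 CPM in TBTCl. The lowest TCDD library thus lay far above the highest TBTCl library, and DMSO averaged 8.37 ± 6.54 CPM. Its log2 fold change was 9.03 ± 1.15 SE (adjusted p = 2.37e-06), and 9.64 without TBTCl replicate 2, which had the most CYP1A1 of its group. CYP1A2, the neighbouring and closely related P450 gene, had 8.32, 23.5, 11 and 8.52 CPM in TCDD, against 0, 0.0524, 0.064 and 0.0696 CPM in TBTCl. CYP1B1, a P450 that oxidises oestrogens and hydrocarbons, had 6.45, 6.06, 5.42 and 4.08 CPM in TCDD, against 0.123, 0.105, 0 and 0.0696 CPM in TBTCl. For AHRR, the receptor's own repressor, the values were 1.77, 2.07, 1.99 and 1.98 CPM in TCDD, against 0.049, 0.105, 0 and 0.0348 CPM in TBTCl. These 3 genes had at most 5 reads in any TBTCl library, so their levels are given in place of a fold change. They were called with adjusted p of 8.18e-09, 4.47e-09 and 1.43e-08. ALDH3A1, an aldehyde dehydrogenase, had 533, 413, 241 and 259 CPM in TCDD, against 4.56, 4.09, 0.384 and 1.08 CPM in TBTCl (log2 fold change 7.12 ± 0.86 SE, adjusted p = 1.04e-06).

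Members of the list that TBTCl cells already expressed differed by smaller factors. NQO1, a quinone reductase shared with the NRF2 pathway, had 1993, 1439, 1230 and 1218 CPM in TCDD, against 479.8, 514, 202 and 557 CPM in TBTCl (log2 fold change 1.75 ± 0.34 SE, adjusted p = 0.00061). SLC7A5, a transporter of large neutral amino acids, had 2698, 2187, 1990 and 2629 CPM in TCDD, against 897, 755, 564 and 517 CPM in TBTCl (log2 fold change 1.80 ± 0.19 SE, adjusted p = 1.63e-07). NFE2L2, which encodes NRF2 itself, had 225, 215, 256 and 224 CPM in TCDD, against 121, 127, 130.1 and 138 CPM in TBTCl (log2 fold change 0.83 ± 0.10 SE, adjusted p = 6.78e-07). In these 3 genes no TBTCl library reached the lowest TCDD library. SERPINB2, a protease inhibitor, averaged 0.717 ± 0.339 CPM in TCDD and 0.0536 ± 0.0407 CPM in TBTCl (adjusted p = 0.00152), with at most 4 reads in a TBTCl library. TIPARP, a mono-ADP-ribosyltransferase that restrains AHR, differed least, with 27.6, 18.8, 17 and 17.9 CPM in TCDD, against 13.8, 17.6, 15.5 and 9.22 CPM in TBTCl (log2 fold change 0.53 ± 0.17 SE, adjusted p = 0.0391). That call was lost when TCDD replicate 1 (adjusted p = 0.199), TCDD replicate 2 (0.0526), TBTCl replicate 1 (0.069) or TBTCl replicate 4 (0.154) was left out, in the fit of the 8 libraries alone (0.263) and with no filter on low counts (0.0655). The remaining 4 members, UGT1A6, CYP2S1, EREG and VEGFA, had log2 fold changes between -0.32 and 0.97 that did not pass.

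**Figure D3:**
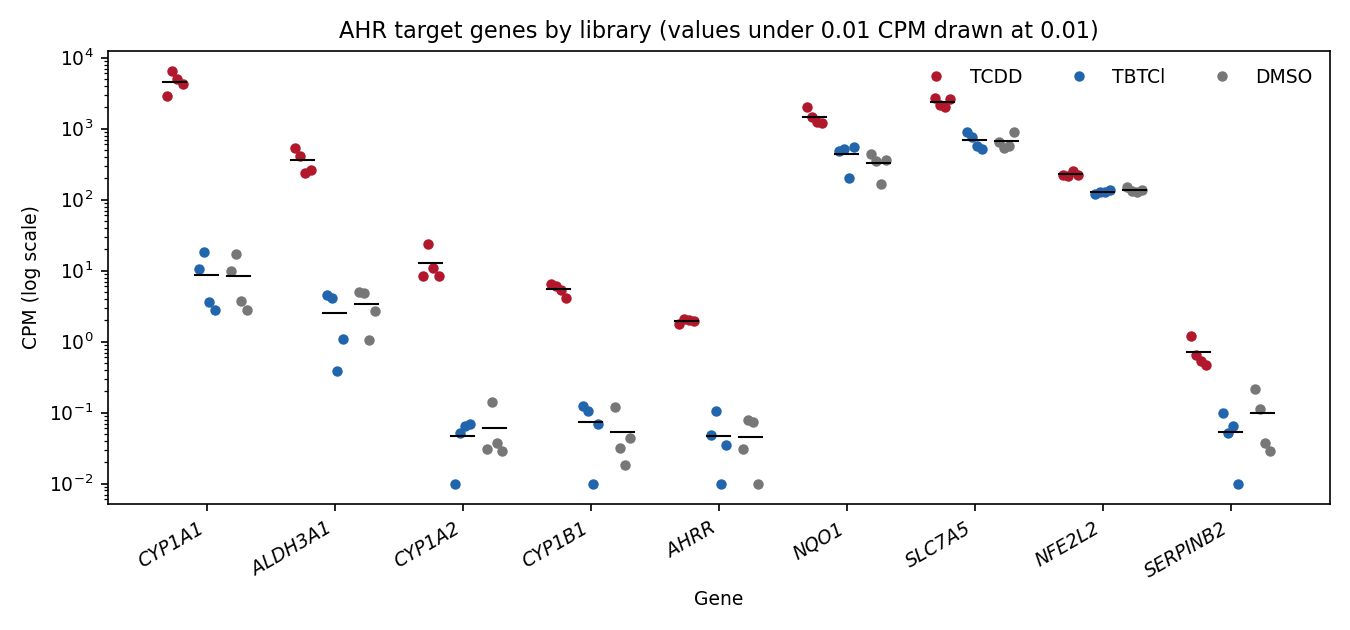
CPM on a log scale (y axis) of 9 AHR target genes (x axis) in the 4 libraries of TCDD, TBTCl and DMSO, with a black line at each mean. In all 9 genes every TCDD point lies above every TBTCl point, and none of the 9 was called between TBTCl and DMSO. The other tested members of the list, TIPARP, UGT1A6, CYP2S1, EREG and VEGFA, are not shown, and their groups overlap.

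No difference was called in the receptor machinery itself. Of 11 tested genes for the receptor complex and its partners 0 passed edgeR's test in either direction (3 at an unadjusted p under 0.05, 0 by DESeq2), against 12.8% called and 4989 of 18849 at an unadjusted p under 0.05 over all tested genes. All 11 intervals of the difference lay within 2-fold. AHR had 22.7, 21.5, 24.7 and 19.8 CPM in TCDD, against 19.1, 23.5, 29.6 and 33.6 CPM in TBTCl, a log2 fold change of -0.25 with a 95% interval from -0.58 to 0.08. PTGES3, the p23 co-chaperone, had the narrowest interval of the list, from -0.30 to 0.15. Its groups were 318 ± 32.5 CPM in TCDD and 335 ± 55.2 CPM in TBTCl.

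Beyond the known battery, the genes named for the largest fold changes had low levels under TBTCl, which choosing by fold change favours. MYADML2, a gene of the MAL domain family, had 10.6, 16.2, 11.5 and 10.7 CPM in TCDD, against 0, 0, 0 and 0.0348 CPM in TBTCl, the TBTCl values resting on a single read. PLA2G4F, a cytosolic phospholipase A2, had 86.4, 60.1, 27.2 and 40.9 CPM in TCDD, against 0.147, 0.131, 0.384 and 0 CPM in TBTCl. LIM2, known as a membrane protein of the eye lens, had 80.5, 165, 116 and 109 CPM in TCDD, against 0.123, 0.0262, 0.544 and 1.32 CPM in TBTCl. Its log2 fold change was 7.97 ± 0.61 SE with TBTCl replicate 4 and 9.07 without it. FMOD, a collagen-binding proteoglycan whose promoter is printed above, had 20.6, 32.1, 18.5 and 17.4 CPM in TCDD, against 0.27, 0.0524, 0.032 and 0 CPM in TBTCl. NKAIN1, which interacts with the sodium pump, had 185, 135, 74.7 and 98.8 CPM in TCDD, against 0.687, 0.97, 0.48 and 0.696 CPM in TBTCl (log2 fold change 7.43 ± 0.55 SE, adjusted p = 2.28e-10). CDX2, the homeobox factor of intestine, had 22.9, 18.4, 16.9 and 18.9 CPM in TCDD, against 0.294, 0.21, 0.032 and 0.104 CPM in TBTCl (log2 fold change 6.81 ± 0.49 SE, adjusted p = 1.41e-10). None of the TBTCl libraries came near the TCDD libraries in these 6 genes (adjusted p between 8.28e-11 and 2.14e-09), and their DMSO means lay between 0.0252 and 0.877 CPM. That the groups did not overlap was a condition for naming genes by their change. MYADML2, at no more than 0.0252 CPM on average in any group other than TCDD, also passed the filter on low counts through its TCDD libraries.

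A further 3 genes had 1 TCDD or TBTCl library well above the others. ALPL, tissue-nonspecific alkaline phosphatase, had 17.6, 5.98, 7.8 and 7.08 CPM in TCDD, against 0.0245, 0.236, 0 and 0.104 CPM in TBTCl. CCDC141 had 11.8, 4.6, 4.29 and 5.02 CPM in TCDD, against 0.0245, 0.184, 0 and 0.0348 CPM in TBTCl. VIPR1, a receptor for vasoactive intestinal peptide, had 17.2, 13.1, 8.04 and 7.12 CPM in TCDD, against 0.049, 0.288, 0.064 and 0.0696 CPM in TBTCl. The groups did not overlap in any of the 3 (adjusted p between 6.37e-09 and 1.93e-08), which was a condition for naming them. GSTP1, a pi-class glutathione transferase, had 3.48, 2.79, 2.11 and 2.9 CPM in TCDD, against 0.0736, 0.105, 0 and 0.0348 CPM in TBTCl (adjusted p = 2.82e-09).

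The 6 smallest p-values among genes higher in TCDD belonged to RGMB, SOS1, LRRC25, ADRA1D, PTGDR2 and LMCD1. RGMB (ENSG00000174136, chr5:98768650-98798643), a BMP co-receptor, had the smallest p of all. It had 99.6, 87.4, 90.1 and 95.4 CPM in TCDD, against 9.86, 9.36, 7.49 and 8.04 CPM in TBTCl, a 10.7-fold difference (log2 fold change 3.42 ± 0.15 SE, adjusted p = 8.98e-15). SOS1, the exchange factor that activates RAS, had 799, 704, 766 and 839 CPM in TCDD, against 54.6, 59, 58.1 and 27.2 CPM in TBTCl (log2 fold change 3.97 ± 0.21 SE, adjusted p = 9.93e-13), and TBTCl replicate 4 was the low one. LRRC25 had 81.9, 89, 92.6 and 101 CPM in TCDD, against 0.834, 1.49, 0.896 and 1.29 CPM in TBTCl (log2 fold change 6.34 ± 0.35 SE, adjusted p = 1.27e-12). ADRA1D, an adrenergic receptor, averaged 36.1 ± 4.82 CPM in TCDD and 1.89 ± 0.225 CPM in TBTCl (log2 fold change 4.25 ± 0.24 SE, adjusted p = 1.4e-12). PTGDR2, a prostaglandin D2 receptor, averaged 137 ± 36.6 CPM in TCDD and 8.12 ± 2.12 CPM in TBTCl (log2 fold change 4.07 ± 0.24 SE, adjusted p = 3.71e-12). LMCD1, a LIM-domain regulator of GATA factors, averaged 38.3 ± 5.14 CPM in TCDD and 5.19 ± 1.16 CPM in TBTCl (log2 fold change 2.88 ± 0.17 SE, adjusted p = 8.27e-12). All of these were called higher than DMSO for TCDD and not called for TBTCl.

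The iron, steroid and retinoid lists held few members higher in TCDD, where 7.26% of all tested genes were higher and 5.58% lower. HAMP, which encodes the iron hormone hepcidin, had 47.1, 50.9, 35.2 and 37.5 CPM in TCDD, against 1.37, 3.09, 2.72 and 5.33 CPM in TBTCl (log2 fold change 3.78 ± 0.38 SE, adjusted p = 4.49e-08). SMAD7, an inhibitory SMAD of the TGF beta and BMP pathways, averaged 20.7 ± 2.28 CPM in TCDD and 9.75 ± 2.63 CPM in TBTCl (log2 fold change 1.08 ± 0.20 SE, adjusted p = 0.000332). CYP19A1, aromatase, had 69.9, 88.5, 73 and 57.1 CPM in TCDD, against 13.2, 16.2, 25 and 18 CPM in TBTCl (log2 fold change 1.99 ± 0.18 SE, adjusted p = 6.93e-09). Of 15 iron-handling genes 3 were higher and 0 lower, 4 and 1 without TBTCl replicate 4, and of 14 steroid enzyme genes 2 were higher and 1 lower. RXRA, the RXR subtype abundant in liver and a known receptor of tributyltin, had 239, 287, 201 and 221 CPM in TCDD, against 119, 103, 100.5 and 89.9 CPM in TBTCl (log2 fold change 1.20 ± 0.13 SE, adjusted p = 2.56e-07), and DMSO averaged 107 ± 11.3 CPM. Of 10 tested genes of the retinoid response 1 was higher, RXRA, and 1 lower, and the lower call was lost without TBTCl replicate 4.

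Large differences in the other direction were seen in HAL, SLC51B and ANGPTL8. HAL, histidine ammonia-lyase, had 0.418, 2.3, 1.43 and 1.06 CPM in TCDD, against 5.27, 6.42, 61.6 and 36.9 CPM in TBTCl (log2 fold change -4.38 ± 0.92 SE, adjusted p = 0.00153). TBTCl replicates 3 and 4 were far above replicates 1 and 2, and without replicate 3 the log2 fold change was -3.61. HAL also varied in DMSO, with 5.605, 14.5, 36.7 and 15.5 CPM, and was not called between TBTCl and DMSO. ANGPTL8, a liver-secreted regulator of lipoprotein lipase, had 16.9, 19.1, 16.5 and 19.9 CPM in TCDD, against 77.1, 150.2, 227 and 289 CPM in TBTCl (log2 fold change -3.36 ± 0.53 SE, adjusted p = 5.5e-05), with DMSO at 104 ± 42.9 CPM. KNG1, kininogen, had 2.33, 4.2, 2.83 and 1.46 CPM in TCDD, against 26.7, 35.7, 22.5 and 16.8 CPM in TBTCl (log2 fold change -3.22 ± 0.42 SE, adjusted p = 3.4e-06), with DMSO at 7.76 ± 3.7 CPM. The groups did not overlap in HAL, ANGPTL8 or KNG1, which was a condition for naming genes by their change.

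Others on this side were transporters, regulators and conjugating enzymes. SLC6A12, a betaine transporter, averaged 0.722 ± 0.402 CPM in TCDD and 5.37 ± 3.43 CPM in TBTCl (log2 fold change -2.92 ± 0.63 SE, adjusted p = 0.00206). HOXD1, a homeobox gene, had 1.19, 2.17, 1.85 and 2 CPM in TCDD, against 11.2, 8.13, 12.4 and 18 CPM in TBTCl (log2 fold change -2.78 ± 0.36 SE, adjusted p = 2.68e-06), and DMSO at 10.8 ± 3.14 CPM was close to TBTCl. UGT2B4 averaged 1.37 ± 0.589 CPM in TCDD and 8.52 ± 2.35 CPM in TBTCl (log2 fold change -2.63 ± 0.35 SE, adjusted p = 5.87e-06). UGT2B11 averaged 0.846 ± 0.345 CPM in TCDD and 5.01 ± 1.74 CPM in TBTCl (log2 fold change -2.55 ± 0.48 SE, adjusted p = 0.000438). UGT2B27P, a pseudogene of the same family, averaged 1.49 ± 0.552 CPM in TCDD and 9 ± 5.67 CPM in TBTCl (log2 fold change -2.57 ± 0.54 SE, adjusted p = 0.00157). These glucuronosyltransferase genes are near-copies of each other on chromosome 4, and how reads were divided among them is uncertain. Over the 17 conjugating enzymes 1 was higher and 5 lower, 1 and 4 without TBTCl replicate 4. CYP24A1, which breaks down vitamin D, averaged 1.47 ± 0.912 CPM in TCDD and 7.84 ± 4.64 CPM in TBTCl (log2 fold change -2.46 ± 0.74 SE, adjusted p = 0.0263). Its call was lost without TCDD replicate 1 (adjusted p = 0.067), TCDD replicate 2 (0.0886) or TBTCl replicate 1 (0.0735).

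A set of genes was called lower than DMSO under TCDD and higher than DMSO under TBTCl. There were 6, SREBF1, NR0B2, CEBPA, MPV17L, SLC25A33 and MID1IP1, and 1 RNA without a symbol, ENSG00000236209, had the reverse pattern, with 2.25 ± 0.152 CPM in TCDD and 0.846 ± 0.274 CPM in TBTCl and DMSO at 1.54 ± 0.0593 CPM. Both calls of that RNA against DMSO were near the threshold (adjusted p = 0.0466 for TCDD and 0.0454 for TBTCl). Both were lost without any 1 DMSO library and in fits of the compared groups alone. Its call in TCDD against DMSO was also lost without any 1 TCDD library. SREBF1 (ENSG00000072310, chr17:17810399-17837002), the master regulator of fatty acid synthesis and itself an LXR target, had 100.1, 81, 87.6 and 125 CPM in TCDD, against 312, 322, 238 and 239 CPM in TBTCl. DMSO lay between at 148 ± 25.5 CPM, and the log2 fold change of TCDD over TBTCl was -1.50 ± 0.14 SE (adjusted p = 7.4e-09). NR0B2, which encodes SHP, the bile acid-induced repressor under FXR control, had 46.8, 34.8, 37.5 and 27.5 CPM in TCDD, against 183, 202, 189 and 274 CPM in TBTCl, with DMSO at 112 ± 22.5 CPM (log2 fold change -2.53 ± 0.19 SE, adjusted p = 4.24e-10). CEBPA, a transcription factor of mature hepatocytes, had 28.8, 32.6, 35.6 and 46.3 CPM in TCDD, against 164, 139.9, 114 and 167 CPM in TBTCl, with DMSO at 83.7 ± 11.3 CPM (log2 fold change -2.03 ± 0.17 SE, adjusted p = 1.76e-09).

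MPV17L, related to the mitochondrial membrane protein MPV17, had 29.2, 28.1, 35 and 33.2 CPM in TCDD, against 82.7, 91.2, 95.7 and 123 CPM in TBTCl, with DMSO at 54.4 ± 3 CPM (log2 fold change -1.64 ± 0.12 SE, adjusted p = 2.64e-10). SLC25A33, a mitochondrial pyrimidine nucleotide carrier, averaged 58.5 ± 3.3 CPM in TCDD and 135 ± 20.3 CPM in TBTCl, with DMSO at 94.8 ± 7.79 CPM (log2 fold change -1.20 ± 0.10 SE, adjusted p = 1.76e-09). MID1IP1, an activator of acetyl-CoA carboxylase, averaged 72 ± 8.76 CPM in TCDD and 158 ± 12.2 CPM in TBTCl, with DMSO at 109 ± 14.6 CPM (log2 fold change -1.14 ± 0.11 SE, adjusted p = 4.49e-08). In each of the 6 genes every TCDD library was below every TBTCl library, as in 5.01% of all tested genes. Choosing the 6 by opposite calls against DMSO favours such a separation, which is therefore no added support. The calls of the 6 in TCDD against DMSO held when any 1 TCDD or DMSO library was left out, while those in TBTCl against DMSO did not. Without any 1 DMSO library 2 of the 6, MPV17L and SREBF1, were called higher in TBTCl than in DMSO, without TBTCl replicate 4 there were 3, and in the fit of those 2 groups alone 0, with adjusted p from 0.531 to 0.673. DESeq2 and the replicate block called all 6. Between the compounds each was still called without TBTCl replicate 4, with adjusted p between 3.53e-10 and 3.54e-08.

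A further 9 genes were called higher in TBTCl than in both TCDD and DMSO, while TCDD did not differ from DMSO by the test. The 4 described here are examples, and the others were GAST, CHCHD10, TTC39C, ZFAND2A and APOA2. SLC51B, the beta subunit of the bile acid exporter OST, had 1.01, 2.07, 2.11 and 1.86 CPM in TCDD, against 21.8, 14.1, 8.61 and 46 CPM in TBTCl, with DMSO at 3.42 ± 1.53 CPM. Its log2 fold change was -3.68 ± 0.47 SE, and -3.09 without TBTCl replicate 4, the highest library. ABCG1, a cholesterol exporter and LXR target, had 0.0995, 0.113, 0.119 and 0 CPM in TCDD, against 1.03, 1.39, 0.544 and 0.731 CPM in TBTCl (log2 fold change -3.43 ± 0.50 SE, adjusted p = 1.91e-05), with DMSO at 0.157 ± 0.0942 CPM. LPCAT3, a phospholipid remodelling enzyme under LXR control, had 103, 74.7, 75.7 and 87.3 CPM in TCDD, against 159, 196, 133 and 115 CPM in TBTCl (log2 fold change -0.83 ± 0.13 SE, adjusted p = 3.97e-05), with DMSO at 85.7 ± 6.97 CPM. CD14, a receptor for bacterial lipopolysaccharide, had 0.816, 0.972, 0.774 and 1.13 CPM in TCDD, against 5.62, 3.83, 4.32 and 5.81 CPM in TBTCl (log2 fold change -2.40 ± 0.29 SE, adjusted p = 8.93e-07), with DMSO at 1.45 ± 0.165 CPM. Of the 4 calls in TBTCl against DMSO, those of LPCAT3 and CD14 held without any 1 DMSO or TBTCl library. Those of SLC51B and ABCG1 were lost without DMSO replicate 2 or 3, and that of ABCG1 also without DMSO replicate 4. In the fit of those 2 groups alone 0 of the 4 were called. CD14 is also a monocyte marker. All libraries are of the HepG2 line, and PTPRC, of the same marker list, stayed under 0.1 CPM in all libraries of TCDD, TBTCl and DMSO. The part of cell composition in the CD14 difference was not tested.

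**Figure D4:**
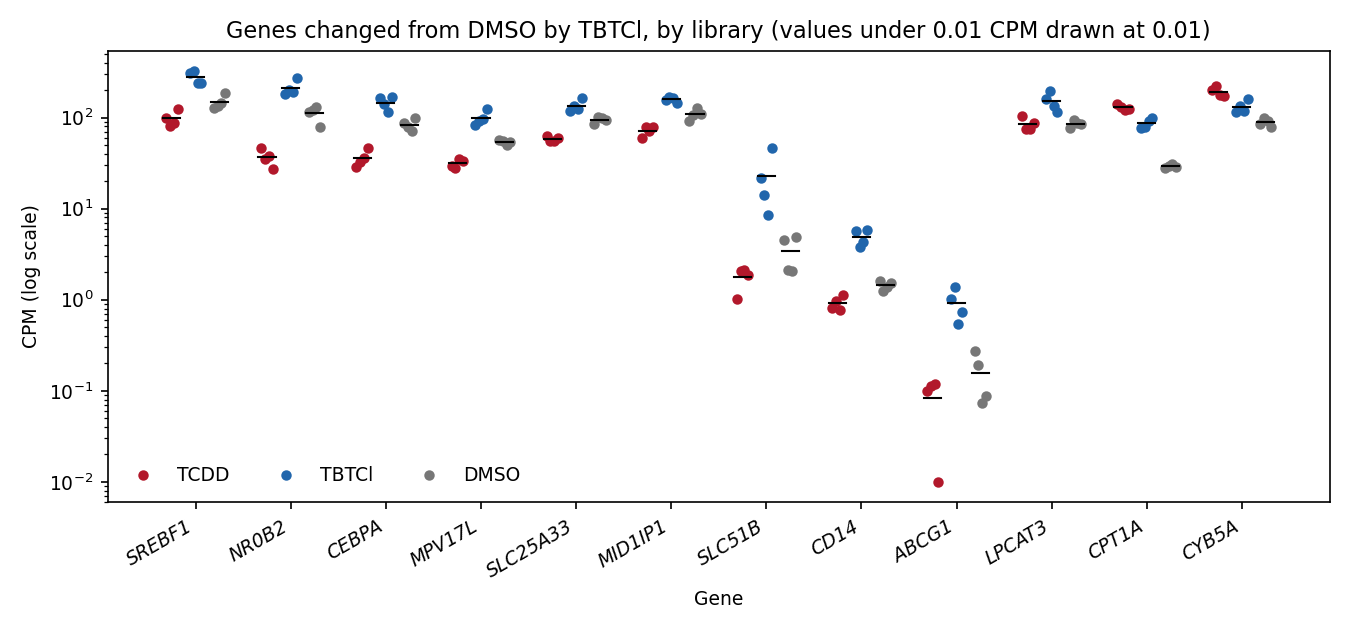
CPM on a log scale (y axis) of 12 genes called between TBTCl and DMSO (x axis) in the 4 libraries of TCDD, TBTCl and DMSO, with a black line at each mean. DMSO lies between TCDD and TBTCl in the first 6 genes, while CPT1A and CYB5A at the right lie above DMSO under both compounds.

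Of the genes called against DMSO for both compounds, 3 were higher in both. CPT1A, the gatekeeper of fatty acid entry into mitochondria and a PPAR target, had 141, 132, 122 and 125 CPM in TCDD, against 75.9, 79, 91.5 and 98.6 CPM in TBTCl, both far above DMSO at 29.1 ± 1.25 CPM. TCDD was the higher of the pair (log2 fold change 0.59 ± 0.17 SE, adjusted p = 0.0175). CYB5A, cytochrome b5, averaged 193 ± 22.9 CPM in TCDD and 132 ± 19.8 CPM in TBTCl, with DMSO at 88.4 ± 8.13 CPM (log2 fold change 0.55 ± 0.11 SE, adjusted p = 0.00129). The difference in CYB5A was lost in the fit of the 8 libraries alone (adjusted p = 0.0839). APOC1, a small apolipoprotein, had 132, 206, 157 and 132 CPM in TCDD, against 81.1, 95.3, 124 and 317 CPM in TBTCl, with DMSO at 56.5 ± 7.06 CPM. Between the compounds its log2 fold change was 0.02 with a 95% interval from -0.53 to 0.57. Its sign varied with the library left out, and without TBTCl replicate 4 the log2 fold change was 0.63 (adjusted p = 0.0169). When any 1 DMSO library or TBTCl replicate 4 was left out, CPT1A was still called between TBTCl and DMSO, and CYB5A and APOC1 were not. Of 18 PPAR and fatty acid oxidation genes 3 were higher and 1 lower in TCDD, 2 and 1 without TBTCl replicate 4. Over all tested genes 7.26% were higher and 5.58% lower.

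RXR and LXR targets did not differ in 1 direction. Of 14 tested, 5 were lower in TCDD and 2 higher, 4 and 3 without TBTCl replicate 4, with a median log2 fold change of -0.45. The lower ones include ABCG1, LPCAT3 and SREBF1 above and SCD, the stearoyl-CoA desaturase, which averaged 2485 ± 368 CPM in TCDD and 4300 ± 239 CPM in TBTCl (log2 fold change -0.79 ± 0.18 SE, adjusted p = 0.00324). The 2 higher ones were ABCC3, an exporter of conjugated bile acids, with 88.2 ± 12.4 CPM in TCDD and 41.5 ± 9.66 CPM in TBTCl (log2 fold change 1.09 ± 0.18 SE, adjusted p = 9.23e-05), and MYLIP, which targets the LDL receptor for breakdown, with 6.83 ± 1.45 CPM in TCDD and 4.35 ± 0.53 CPM in TBTCl (log2 fold change 0.65 ± 0.15 SE, adjusted p = 0.00375). MYLIP was not called in the fit of the 8 libraries alone (adjusted p = 0.112). The 7 that did not pass, among them ABCA1, ABCG5 and ABCG8, had log2 fold changes between -0.78 and 0.25.

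Many lipid synthesis genes were lower in TCDD. Of 24 cholesterol synthesis and uptake genes 13 were lower and 0 higher, with a median log2 fold change of -0.49, and 21 of the 24 fold changes were below 0. Without TBTCl replicate 4, 9 were lower. MVD, mevalonate diphosphate decarboxylase, had 268, 301, 262 and 286 CPM in TCDD, against 462, 462, 492 and 933 CPM in TBTCl (log2 fold change -1.07 ± 0.20 SE, adjusted p = 0.000375), and FDFT1, squalene synthase, averaged 525 ± 59 CPM in TCDD and 907 ± 196 CPM in TBTCl (log2 fold change -0.79 ± 0.16 SE, adjusted p = 0.00126). In both, TBTCl replicate 4 was the highest library, and both were still called without it (adjusted p = 0.00195 and 0.00648).

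Of 18 fatty acid and triglyceride synthesis genes 9 were lower in TCDD and 1 higher, with a median log2 fold change of -0.77, and the counts were the same without TBTCl replicate 4. FASN, fatty acid synthase, had 1809, 1086, 1257 and 2043 CPM in TCDD, against 4739, 4019, 3104 and 1781 CPM in TBTCl (log2 fold change -1.14 ± 0.24 SE, adjusted p = 0.00165). The groups overlapped, since TBTCl replicate 4 was low, and the fit of the 8 libraries alone missed the threshold (adjusted p = 0.0648). DGAT2, which makes triglycerides, had 59.4, 50.2, 40.3 and 46.8 CPM in TCDD, against 95.2, 107, 86.7 and 76.6 CPM in TBTCl (log2 fold change -0.89 ± 0.14 SE, adjusted p = 3.04e-05). PNPLA3, a lipid droplet protein linked to fatty liver, had 27.9, 26.2, 26.2 and 29.5 CPM in TCDD, against 47.1, 53.8, 50.6 and 49.7 CPM in TBTCl (log2 fold change -0.87 ± 0.13 SE, adjusted p = 3.76e-05). FADS1, a fatty acid desaturase, averaged 206 ± 44.8 CPM in TCDD and 385 ± 14 CPM in TBTCl (log2 fold change -0.90 ± 0.18 SE, adjusted p = 0.000975). The exception was AGPAT2, an acyltransferase of triglyceride synthesis, with 45.6, 164, 103 and 88.8 CPM in TCDD, against 13, 8.86, 20 and 80.3 CPM in TBTCl (log2 fold change 1.72 ± 0.57 SE, adjusted p = 0.047). TBTCl replicate 4 was far above the other TBTCl libraries, and without it the log2 fold change was 2.83. Leaving out any other library except TCDD replicate 1 lost the call, with adjusted p from 0.0708 to 0.149, as did the fit of the 8 libraries alone (0.181). Of 20 lipid droplet and lipoprotein genes 5 were lower and 0 higher, and 3 were lower without TBTCl replicate 4.

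Some bile acid and hepatocyte genes were lower too. Of 13 bile acid genes 3 were lower and 0 higher, SLC51B and NR0B2 above and NR1H4, which encodes the bile acid receptor FXR. NR1H4 had 6.74, 10.5, 14.1 and 13.9 CPM in TCDD, against 37.3, 37.4, 30.7 and 31.7 CPM in TBTCl (log2 fold change -1.60 ± 0.20 SE, adjusted p = 1.72e-06), with DMSO at 21.5 ± 3.37 CPM. Of 19 genes of secreted hepatocyte proteins 6 were lower and 0 higher, 5 and 1 without TBTCl replicate 4, with a median log2 fold change of -0.57. The fibrinogen chains were among them: FGA averaged 1452 ± 273 CPM in TCDD and 2922 ± 459.7 CPM in TBTCl (log2 fold change -1.01 ± 0.27 SE, adjusted p = 0.0122), FGB averaged 509 ± 131 CPM in TCDD and 1095 ± 181 CPM in TBTCl (log2 fold change -1.10 ± 0.23 SE, adjusted p = 0.00176) and FGG averaged 1426 ± 434 CPM in TCDD and 2417 ± 349 CPM in TBTCl (log2 fold change -0.76 ± 0.22 SE, adjusted p = 0.0201). The FGG call was lost without TCDD replicate 1 (adjusted p = 0.0685) or 4 (0.0544) and in the fit of the 8 libraries alone (0.104). SERPINC1, antithrombin, averaged 154 ± 21.3 CPM in TCDD and 239 ± 37.2 CPM in TBTCl (log2 fold change -0.63 ± 0.13 SE, adjusted p = 0.00155). Of the 10 hepatocyte markers 1 was lower, FGB, and 0 higher. Against DMSO, 0 of these 10 were called for either compound. Of the 19 secreted protein genes 1 was higher and 0 lower in TCDD than in DMSO, and 0 were called between TBTCl and DMSO.

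Liver transcription factors divided. Of 16 tested, 5 were higher and 3 lower in TCDD, 4 and 4 without TBTCl replicate 4. Of the 5 tested biliary markers 1 was higher and 1 lower, 1 and 0 without that library. The biliary genes CFTR and AQP1 stayed under 0.1 CPM in all libraries of the 3 groups. TBX3, a T-box factor and WNT target, had 206, 167, 181 and 197 CPM in TCDD, against 70.7, 56.4, 47.1 and 42 CPM in TBTCl (log2 fold change 1.79 ± 0.18 SE, adjusted p = 3.54e-08), and NR5A2, a nuclear receptor of bile acid synthesis, averaged 4.33 ± 0.518 CPM in TCDD and 1.79 ± 0.13 CPM in TBTCl (log2 fold change 1.27 ± 0.19 SE, adjusted p = 1.8e-05). CEBPA and ONECUT2 were lower, the second with 15.3 ± 1.96 CPM in TCDD and 29.7 ± 9.57 CPM in TBTCl (log2 fold change -0.96 ± 0.23 SE, adjusted p = 0.00551).

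**Figure D5:**
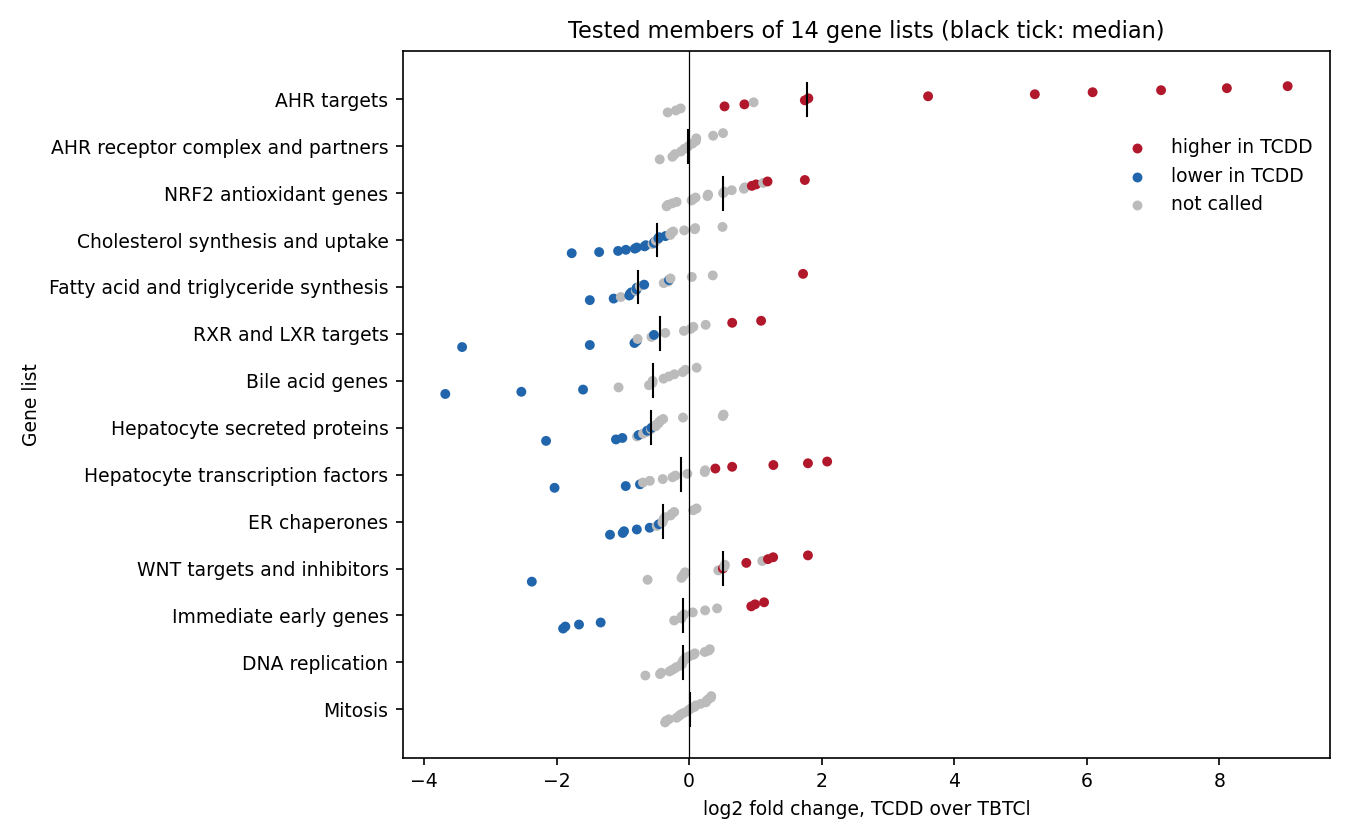
The log2 fold change of TCDD over TBTCl (x axis) for each tested member of 14 gene lists (y axis), red where higher and blue where lower in TCDD by the test, with a black tick at the list's median. AHR targets reach 9.03, the cholesterol and fatty acid lists lie mostly below 0, and the DNA replication and mitosis lists hold no called member.

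Stress pathways differed in parts, and over all tested genes 7.26% were higher and 5.58% lower. Of 19 NRF2 genes 4 were higher in TCDD and 0 lower, 3 without TBTCl replicate 4. Besides NQO1 these included HMOX1, heme oxygenase, with 258 ± 47.8 CPM in TCDD and 114 ± 20.4 CPM in TBTCl (log2 fold change 1.18 ± 0.15 SE, adjusted p = 3.19e-06), and GCLM, a subunit of the enzyme that starts glutathione synthesis, with 49.9 ± 9.89 CPM in TCDD and 24.8 ± 2.67 CPM in TBTCl (log2 fold change 1.01 ± 0.19 SE, adjusted p = 0.000554). The TBTCl mean of HMOX1 lay between those of TCDD and DMSO (83.4 ± 9.89 CPM). Of 12 metallothionein and zinc genes 1 was higher, near the share of all tested genes. It was MT2A, with 122, 316, 207 and 163 CPM in TCDD, against 31, 20, 35.5 and 143 CPM in TBTCl (log2 fold change 1.82 ± 0.49 SE, adjusted p = 0.0128). TBTCl replicate 4 was its highest TBTCl library, and without it 3 genes were called and the log2 fold change of MT2A was 2.80. The MT2A call was lost without TCDD replicate 2 (adjusted p = 0.0554) and in the fit of the 8 libraries alone (0.109).

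Of 16 ER chaperone genes 6 were lower in TCDD and 0 higher, 9 without TBTCl replicate 4. MANF, a secreted ER stress protein, averaged 62.7 ± 8.12 CPM in TCDD and 124 ± 37 CPM in TBTCl (log2 fold change -0.98 ± 0.18 SE, adjusted p = 0.000361), and DNAJB9, an ER co-chaperone, averaged 22.8 ± 3.09 CPM in TCDD and 39.4 ± 7.34 CPM in TBTCl (log2 fold change -0.79 ± 0.17 SE, adjusted p = 0.00246). Of 19 integrated stress response genes 3 were higher and 3 lower, 3 and 1 without TBTCl replicate 4. The higher ones were PPP1R15A, which restarts translation, with 63.1 ± 3.28 CPM in TCDD and 33.3 ± 2.7 CPM in TBTCl (log2 fold change 0.92 ± 0.17 SE, adjusted p = 0.0005), SLC3A2, the partner chain of SLC7A5, with 546 ± 92.4 CPM in TCDD and 274 ± 57.1 CPM in TBTCl (log2 fold change 1.00 ± 0.20 SE, adjusted p = 0.000943), and ATF3, a stress-induced transcription factor, with 23.9 ± 6.35 CPM in TCDD and 10.2 ± 2.71 CPM in TBTCl (log2 fold change 1.23 ± 0.30 SE, adjusted p = 0.0065). Of 16 nuclear ATP synthase genes 3 were lower, and 0 without TBTCl replicate 4. ATP5F1E, a short transcript, had 171, 189.7, 156 and 146 CPM in TCDD, against 197, 201, 205 and 457 CPM in TBTCl, and its log2 fold change of -0.68 became -0.29 without that library (adjusted p = 0.0733), and the fit of the 8 libraries alone also missed the threshold (0.206).

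Signalling genes moved both ways, and over all tested genes 7.26% were higher and 5.58% lower. Of 15 WNT targets and inhibitors 5 were higher in TCDD and 1 lower, 4 and 1 without TBTCl replicate 4. NOTUM, a secreted WNT inhibitor, averaged 513 ± 74.8 CPM in TCDD and 225 ± 68.7 CPM in TBTCl (log2 fold change 1.19 ± 0.26 SE, adjusted p = 0.00192), NKD1, another inhibitor, averaged 568 ± 78 CPM in TCDD and 236 ± 73 CPM in TBTCl (log2 fold change 1.27 ± 0.30 SE, adjusted p = 0.00422), and DKK4, also an inhibitor, had 2.92, 1.3, 1.19 and 1.2 CPM in TCDD, against 9.64, 12.8, 7.9 and 4.14 CPM in TBTCl (log2 fold change -2.37 ± 0.41 SE, adjusted p = 0.000184). Of 14 immediate early genes 3 were higher and 4 lower, 4 and 3 without that library. KLF6 averaged 158 ± 22 CPM in TCDD and 82.7 ± 30.7 CPM in TBTCl (log2 fold change 0.94 ± 0.18 SE, adjusted p = 0.000774) and FOSL2 averaged 68.4 ± 13.6 CPM in TCDD and 34.3 ± 11.2 CPM in TBTCl (log2 fold change 0.99 ± 0.24 SE, adjusted p = 0.00648), while EGR1, a growth factor response gene, had 10.1, 8.16, 8.9 and 7.81 CPM in TCDD, against 32, 17.9, 30.5 and 30.2 CPM in TBTCl (log2 fold change -1.66 ± 0.28 SE, adjusted p = 0.000153). Of 14 acute phase and inflammation genes 3 were higher and 2 lower, 4 and 1 without that library, and of 17 TGF beta and matrix genes 3 were higher, FMOD among them, and 1 lower.

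Several lists held few or no differences. By edgeR's test 0 of 20 DNA replication genes, 0 of 18 mitosis genes and 0 of 13 mitochondrially encoded mRNAs were called. At an unadjusted p under 0.05 there were 1, 0 and 0, and DESeq2 called 0, 0 and 0. The 95% interval lay within 2-fold for 13 of the replication genes, 16 of the mitosis genes and all 13 mitochondrial mRNAs. Of 18 p53 targets 0 were higher and 2 lower, 1 and 2 without TBTCl replicate 4. Of 12 cytosolic heat shock genes 0 were higher and 1 lower, 0 and 0 without that library. Of 14 imprinted network genes 1 was higher and 2 lower, 0 and 1 without it. Of 14 genes of gluconeogenesis and amino acid breakdown 0 were higher and 1 lower, 1 and 1 without it. Of 10 vitamin D and retinoid genes 0 were higher and 2 lower, 0 and 1 without it. With or without it, 1 of 18 hypoxia and glycolysis genes and 1 of 10 CYP2 and CYP3 genes were higher and 0 lower. The background for these counts is 7.26% higher and 5.58% lower.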

How the data were processed

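Messenger RNA of HepG2 cells was sequenced from directional poly(A) libraries, per the labels' protocols. The authors deposited 1 table of raw read counts per gene, whole numbers with no normalization, for all 28 libraries. The submitters' processing notes name fastp, STAR, HTSeq, DESeq2 and GRCh38. Tool versions, the gene annotation and whether reads were counted by strand were not given in the sources used here. Columns were matched to samples by their titles, and 0 other columns of per-sample values were present. The table's last row ends without a line break and was left out, which kept 63139 of 63140 rows. Gene types, transcript lengths (the longest transcript of a gene, known for 95.4% of tested genes) and GRCh38 coordinates came from GENCODE release 29, which may differ from the release used for counting.

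From the counts, edgeR 4.0.16 in R 4.3.3 kept 18849 genes by filterByExpr (minimum count 10), holding 99.96% of all counts, scaled them by TMM and fitted 7 group means over all 28 libraries (21 residual degrees of freedom, common biological coefficient of variation 22%). The quasi-likelihood F test compared TCDD with TBTCl, and each with DMSO, with Benjamini-Hochberg adjustment over all tested genes and a threshold of 0.05. Standard errors were obtained by dividing the absolute log2 fold change by the root of the F statistic. On counts simulated for this comparison over 18849 genes, the fit recovered 59 of 100 genes changed 2-fold and 83 of 100 changed 4-fold, with 8 false calls among the rest. Simulated counts varied independently around a common mean per gene, and no library was shifted along transcript length as TBTCl replicate 4 was. The false calls therefore do not measure the error rate in the real libraries. No 2 libraries of a group agreed within counting error.

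The comparison and the 36 gene lists (598 entries, 597 matched to a row) were chosen with earlier results of these data known. Genes named are those with the 12 largest changes and the 6 smallest p in each direction, taken from called genes that have a symbol, reach a mean of 5 CPM under TCDD or TBTCl and do not overlap between the 2, and from lists with at least 3 called members the 2 with the smallest p in each direction; not all of these are printed, some are not reported here, and other list members and genes changed from DMSO are named as examples. Promoter sequences are RefSeq's on GRCh38.p14. Equal replicate numbers correlated in their deviations from the group means at 0.249 to 0.528 for TBTCl and DMSO, over 0.1 for every number, so the numbers pair those libraries. Alternatives were DESeq2 1.42.0, its size factors in edgeR, library size alone, other filters, a replicate block, the libraries of the 2 groups alone and leaving out each library.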

Additional observations from a re-analysis of the deposited data

Results flagged for a closer look

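The highest or lowest library of a group of 4 was compared with the group's range (Dixon's test at its 95% critical value) for each gene named, over 273 groups of TCDD, TBTCl and DMSO. It stood apart in 21, where chance flags about 1 in 20. TBTCl replicate 4 accounts for 7 of them. It was high in AGPAT2 (80.3 CPM, others 8.86 to 20.0), MVD (933 CPM, others 462 to 492), FDFT1 (1200.0 CPM, others 788 to 826), MT2A (143 CPM, others 20.0 to 35.5), ATP5F1E (457 CPM, others 197 to 205) and MYADML2 (0.0348 CPM, a single read, others 0). It was low in SOS1 (27.2 CPM, others 54.6 to 59.0). In TBTCl replicate 2, VIPR1 was high (0.288 CPM) and EGR1 low (17.9 CPM).

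Among the TCDD libraries, replicate 1 was high in TIPARP (27.6 CPM), ALPL (17.6 CPM), CCDC141 (11.8 CPM) and DKK4 (2.92 CPM). Replicate 2 was high in MYADML2 (16.2 CPM) and PTGDR2 (191 CPM), and replicate 4 held no read of ABCG1 (0 CPM). Among the DMSO libraries, replicate 2 was high in CYP1A2 (0.143 CPM), replicate 3 low in CDX2 (0.0186 CPM), and replicate 4 high in LMCD1 (6.69 CPM) and FDFT1 (1020.0 CPM) and low in CCDC141 (0.0290 CPM).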

How the results depend on the processing

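Of the 88 named genes called between TCDD and TBTCl, all kept direction and call with DESeq2, with its size factors in edgeR, with library size alone and with a replicate block. With a minimum count of 50, 86 were tested and kept theirs. The call was lost for 1 with no filter, for 8 in the libraries of the 2 groups alone and for 1 to 4 when a library was left out. Among genes not called, PTGES3 changed sign with library size alone (0.0031) and without TBTCl replicate 4 (0.0209), and APOC1 without TCDD replicate 2 (-0.137) and TBTCl replicates 1, 2 and 3 (-0.197, -0.16 and -0.0686, up to 0.631 without TBTCl replicate 4); the cause was not tested. The libraries of the 2 groups alone called 667 genes higher and 252 lower in TCDD than in TBTCl. They called 1122 higher and 504 lower in TCDD than in DMSO, and 1 higher and 0 lower in TBTCl than in DMSO. In TCDD and TBTCl, equal replicate numbers correlated at -0.353 to 0.282, which cannot settle whether they share an experiment. The replicate block called 1923 genes higher and 1651 lower in TCDD than in TBTCl. It called 1688 higher and 1034 lower in TCDD than in DMSO, and 102 higher and 77 lower in TBTCl than in DMSO. For TBTCl against DMSO, DESeq2 called 145 higher and 107 lower, library size alone 8 and 1, and no filter 59 and 52. Leaving out each library gave 1117 to 1359 genes higher in TCDD than in TBTCl, 703 to 1323 genes lower in TCDD than in TBTCl, 923 to 1085 genes higher in TCDD than in DMSO, 298 to 598 genes lower in TCDD than in DMSO, 5 to 91 genes higher in TBTCl than in DMSO and 0 to 69 genes lower in TBTCl than in DMSO. Depth limits genes under about 0.1 CPM, where few reads decide a value.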

Other observations

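Antisense RNAs were unevenly divided between the compounds. Of 1699 tested, 137 were higher in TCDD than in TBTCl (8.06%) and 28 lower (1.65%), against 7.69% and 6.96% of 13414 protein-coding genes. Their median log2 fold change was 0.20, against -0.04 for protein-coding genes, and 0.24 without TBTCl replicate 4, when 125 were higher and 21 lower. Long intergenic RNAs had 80 of 1008 higher and 32 lower, 78 and 23 without that library. The strand setting of the counting was not stated in the sources used here, so reads of an antisense RNA and its partner gene may not be told apart.

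The calls also followed transcript length. In the shortest quartile of transcripts 99 of 2638 genes were higher in TCDD and 326 lower, and in the longest quartile 269 of 2638 were higher and 94 lower. Without TBTCl replicate 4 these counts were 141 and 174 in the shortest quartile and 206 and 151 in the longest. The median log2 fold change of the shortest quartile was -0.20 with that library and -0.03 without it.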
